A study of Homo sapiens with 8 samples.

Results

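The transcriptional repressor REST, its corepressor RCOR1 and 35 genes of neuronal, synaptic and cytoskeletal proteins were examined in a pair of human melanoma cell lines. These 37 genes were chosen by name, with earlier results of these data known. Of them, 36 matched 1 feature each among the 23786 features of the arrays. TUBB3, the gene of a neuronal tubulin, matched no feature and is not analysed here. Each of 8 Affymetrix Human Gene 2.0 ST arrays measured the RNA of 1 sample, with 2 samples in each of 4 groups: WM983B cells labelled shp300, WM983B cells with scrambled shRNA, SK-Mel5 cells with shp300 and SK-Mel5 cells with scrambled shRNA. A short hairpin RNA (shRNA) lowers the RNA it matches, here EP300, the gene of the acetyltransferase p300, while the scrambled hairpin is a control. In all 4 groups the hairpin came on a pLKO1-based lentivirus, given with polybrene. All cells grew in Dulbecco's modified Eagle medium with fetal bovine serum and were selected in puromycin at 1.5 µg/mL from 48 h after transduction. The labels give no other hairpin against p300, so its own off-target effects and the loss of p300 cannot be told apart. Whether the samples of a group were cultured separately is not in the labels. The p-values may thus rest on technical spread alone, and the small number of arrays limits their precision.

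REST binds a DNA element called RE1 near many neuronal genes and holds them silent outside neurons. Through RCOR1 it brings the histone demethylase KDM1A and histone deacetylases to those genes, and through another domain it recruits SIN3 complexes. Many RE1-linked genes encode the machinery of regulated exocytosis: vesicle proteins, SNARE proteins that drive membrane fusion, and the factors that prime and time that fusion. Melanocytes descend from the neural crest, as do sympathetic and sensory neurons, and RAB27A serves secretory organelles in melanocytes.

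The RE1 element was searched as CAGCACC, any 2 bases and GGACAG, on both strands of RefSeq promoter windows of 300 bases (build GRCh38.p14, 250 bases before the start and 50 from it on). Windows existed for 26 members, 48 windows in all. Members without a window, STMN2 among them, were not searched, nor was any sequence outside these 300 bases. Absence of the letters here thus does not show that a gene lacks the element. The letters were in 4 of these 48 windows, belonging to SYN1, RPH3A and GRIA2, and in 18 of all 35097 windows (0.0513%). SYN1 and GRIA2 are textbook RE1 genes, so this count is a description of the list. The windows of all 3 genes are printed. SYN1 was called higher in both lines and RPH3A lower in WM983B, where 22.5% of all features were called (16.4% in SK-Mel5). GRIA2 was near background in all 4 groups. Whether the letters bear on these changes was not tested. The window of UNC13A is printed too, since it holds both blocks with a longer gap. This spacing, any 8 bases between CAGCACC and GGACAG, was searched after it had been seen in UNC13A, and 5 of 35097 windows hold it (0.0142%). Each stretch below runs 5′ to 3′ on the gene's own strand, from 250 bases before the start through 30 bases from it. Capitals mark the motif letters, which in RPH3A, GRIA2 and UNC13A lie on the opposite strand and so read in reverse complement.
SYN1: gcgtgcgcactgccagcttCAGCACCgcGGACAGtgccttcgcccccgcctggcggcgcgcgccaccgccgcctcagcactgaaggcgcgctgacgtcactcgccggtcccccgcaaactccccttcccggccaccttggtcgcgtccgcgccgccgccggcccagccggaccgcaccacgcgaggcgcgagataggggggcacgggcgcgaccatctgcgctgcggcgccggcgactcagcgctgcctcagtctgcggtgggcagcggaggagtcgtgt
RPH3A: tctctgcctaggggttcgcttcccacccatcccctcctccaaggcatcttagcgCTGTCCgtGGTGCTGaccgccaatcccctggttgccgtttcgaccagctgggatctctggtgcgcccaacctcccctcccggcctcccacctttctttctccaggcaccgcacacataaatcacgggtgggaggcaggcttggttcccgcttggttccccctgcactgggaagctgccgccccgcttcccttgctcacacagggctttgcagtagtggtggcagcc
GRIA2: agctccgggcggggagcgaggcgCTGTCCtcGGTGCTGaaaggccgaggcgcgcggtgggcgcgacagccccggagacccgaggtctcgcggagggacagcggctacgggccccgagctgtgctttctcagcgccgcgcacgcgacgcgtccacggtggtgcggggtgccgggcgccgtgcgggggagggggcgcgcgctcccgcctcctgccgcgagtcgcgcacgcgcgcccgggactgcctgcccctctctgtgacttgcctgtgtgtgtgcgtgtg
UNC13A: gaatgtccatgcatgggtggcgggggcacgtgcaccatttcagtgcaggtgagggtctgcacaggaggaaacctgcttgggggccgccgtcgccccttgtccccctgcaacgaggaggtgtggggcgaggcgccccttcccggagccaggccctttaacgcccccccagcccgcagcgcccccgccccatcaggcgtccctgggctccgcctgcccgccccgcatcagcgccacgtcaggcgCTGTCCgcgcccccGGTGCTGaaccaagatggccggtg
The stretches lie at chrX:47619828-47620107 (minus strand) for SYN1, chr12:112791498-112791777 (plus) for RPH3A, chr4:157220369-157220648 (plus) for GRIA2 and chr19:17688325-17688604 (minus) for UNC13A. Relative to the start, the letters began at position -231 in SYN1, -196 in RPH3A, -227 in GRIA2 and -8 in UNC13A. The second RPH3A window holds the same site. The block CAGCACC was in 7.75% of all windows and in 8 of the 48 member windows (7 members). GGACAG was in 20.5% of all windows and in 17 of the 48 (15 members). Both counts include the windows with the joined motif. A match of letters is no measurement of binding.

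The arrays of a group correlated at r = 0.992 to 0.995 over all features. Array medians were near 4.26 on the log2 scale in WM983B and 2.99 in SK-Mel5, so levels were read within a line and never across lines. EP300, the targeted gene (Entrez 2033), had log2 values of 6.92 and 7.26 on the WM983B arrays labelled shp300, against 7.10 and 7.22 on the scrambled arrays. Those groups overlapped, and the change was -0.07 (95% interval -0.43 to 0.29, limma adjusted p = 0.832). In SK-Mel5, EP300 measured 5.97 and 6.10 with shp300 and 7.19 and 6.90 with scrambled shRNA, and it fell by 1.01 on the log2 scale (2.02-fold, adjusted p = 0.00377). The WM983B label is thus not borne out by EP300 RNA, and directions in WM983B are those of arrays labelled shp300. Of 7 measured melanocyte markers none was near background in any group. Their summed linear signal was 7879 to 9067 on WM983B arrays labelled shp300 and 13314 to 13553 on scrambled ones, and in SK-Mel5 6931 to 7422 with shp300 and 9224 to 9423 with scrambled shRNA. Of the 7, 4 were called lower and 0 higher in WM983B labelled shp300 (changes from -4.05 to 0.22), and 2 lower and 1 higher in SK-Mel5 (-1.47 to 0.64). All 3 measured leukocyte and all 3 endothelial markers were near background in every group, and so were all 4 keratinocyte markers in every group but SK-Mel5 scrambled, where 3 were. The keratinocyte list summed to 22.0 to 24.04 on WM983B arrays labelled shp300 against 20.3 to 22.8 on scrambled ones, with 1 marker, KRT1, called higher, and to 14.4 to 14.8 against 14.4 to 16.4 in SK-Mel5 (shp300 against scrambled), with 0 called. Of 5 fibroblast markers 2 were near background in each group. DCN was higher in both lines, by 0.71 in WM983B and 1.33 in SK-Mel5, and LUM fell by 0.88 in SK-Mel5. The fibroblast list summed to 824 to 950 on WM983B arrays labelled shp300 against 947 to 1103 on scrambled ones, and to 458 to 481 in SK-Mel5 with shp300 against 751 to 763 with scrambled shRNA. Of 4 HEK293T markers (cells that package lentivirus) 1 was near background in each WM983B group and 2 in each SK-Mel5 group. CDH2 accounted for the 1 call among them, a rise of 1.13 in WM983B labelled shp300, where the list summed to 578 to 642 against 286 to 304 with scrambled shRNA. In SK-Mel5 the list summed to 26.6 to 27.1 with shp300 against 23.0 to 23.8 with scrambled shRNA, with 0 called. Of 4 astrocyte and oligodendrocyte markers, MBP fell in both lines, by 0.77 in WM983B and 0.49 in SK-Mel5, and the list summed to 624 to 649 on WM983B arrays labelled shp300 against 1062 to 1091 on scrambled ones, and in SK-Mel5 to 35.6 to 41.4 with shp300 against 46.2 to 49.9 with scrambled shRNA. The part of these lists in the results below was not tested. In bulk RNA a change in the share of cells and a change of RNA per cell cannot be told apart.

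Low signal was about as frequent among these genes as among all features in WM983B, and somewhat more frequent in SK-Mel5. A feature was counted as near background where its group mean was under the 95th percentile of 354 olfactory receptor features. These genes were taken to be unused in melanoma lines, which was not tested. By that measure 15 of the 36 members were near background in WM983B labelled shp300 and 14 in WM983B scrambled, where 42.2% and 41.5% of all features were. In SK-Mel5 there were 17 with shp300 and 19 with scrambled shRNA, beside 42.5% and 42.8% of all features. In all 4 groups 12 members were near background: the synaptotagmin gene SYT4, the calcium channel gene CACNA1A, the glutamate receptor genes GRIA2 and GRIN1, the neurofilament genes NEFM and NEFH, the microtubule genes STMN2 and DCX, the growth cone gene GAP43, the RNA-binding protein genes ELAVL3 and ELAVL4, and the neurotrophin gene BDNF. Another 16 were above it in every group, and 8 were near it in some groups. At the 75th percentile the counts fell to 3, 4, 3 and 7 in the same group order, so the split depends on where the line is drawn.

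**Figure D1:**
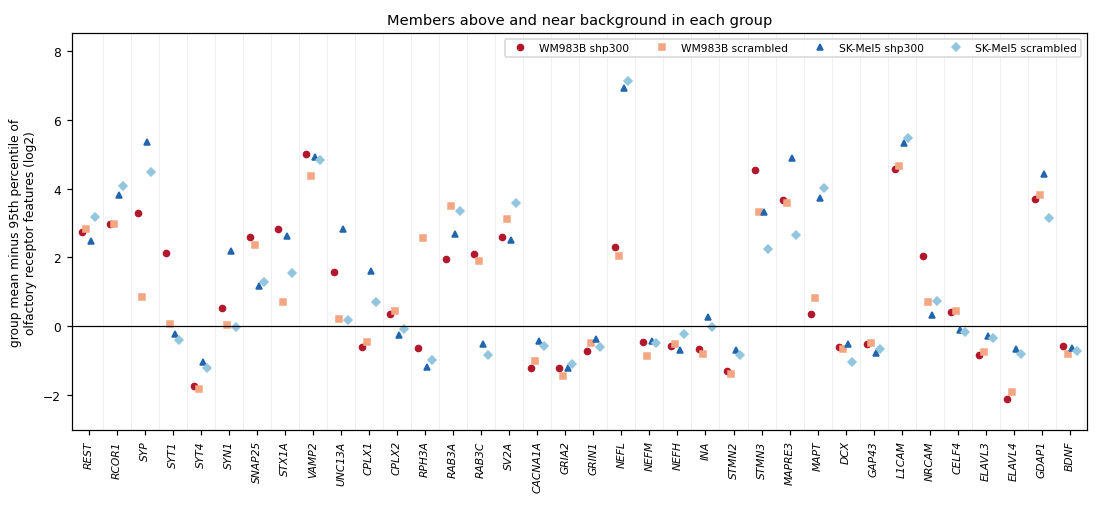
Group mean log2 value of each member minus the 95th percentile of the olfactory receptor features of that group, drawn for the 4 groups. Members below 0 are near background, 12 of them in all 4 groups.

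In WM983B, 12 of the 36 members were called at a limma adjusted p under 0.05 (9 higher and 3 lower on the arrays labelled shp300), which is 33.3% against 22.5% of all features (10.9% higher, 11.6% lower). In SK-Mel5, 9 were called (7 higher, 2 lower), 25% against 16.4% of all features (7.57% higher, 8.8% lower). The members were chosen with earlier results of these data known, so these shares describe the list and are no independent test. The members' median change was 0.16 in WM983B and 0.10 in SK-Mel5, while over all features it was 0.02 and 0.01. Values of shp300 and scrambled arrays were fully apart for 22 members in WM983B (17 above, 5 below) beside 58.4% of all features, and for 24 in SK-Mel5 (14 above, 10 below) beside 51.4%. Of the 36 members, 6 were called in both lines, beside 8.81% of all features. SYP, SYN1, STX1A, UNC13A and STMN3 were higher in both (3.03% of all features were) and SV2A was lower in both (4.91%). No member was called in opposite directions, beside 0.866% of all features. The 14 vesicle and fusion genes, the largest role among the members, had 6 higher and 3 lower in WM983B and 4 higher and 1 lower in SK-Mel5. None of the 3 channel and receptor genes and none of the 3 RNA-binding protein genes was called in either line. All of these but CELF4 were near background in all 4 groups, and CELF4 was near it in both SK-Mel5 groups.

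**Figure D2:**
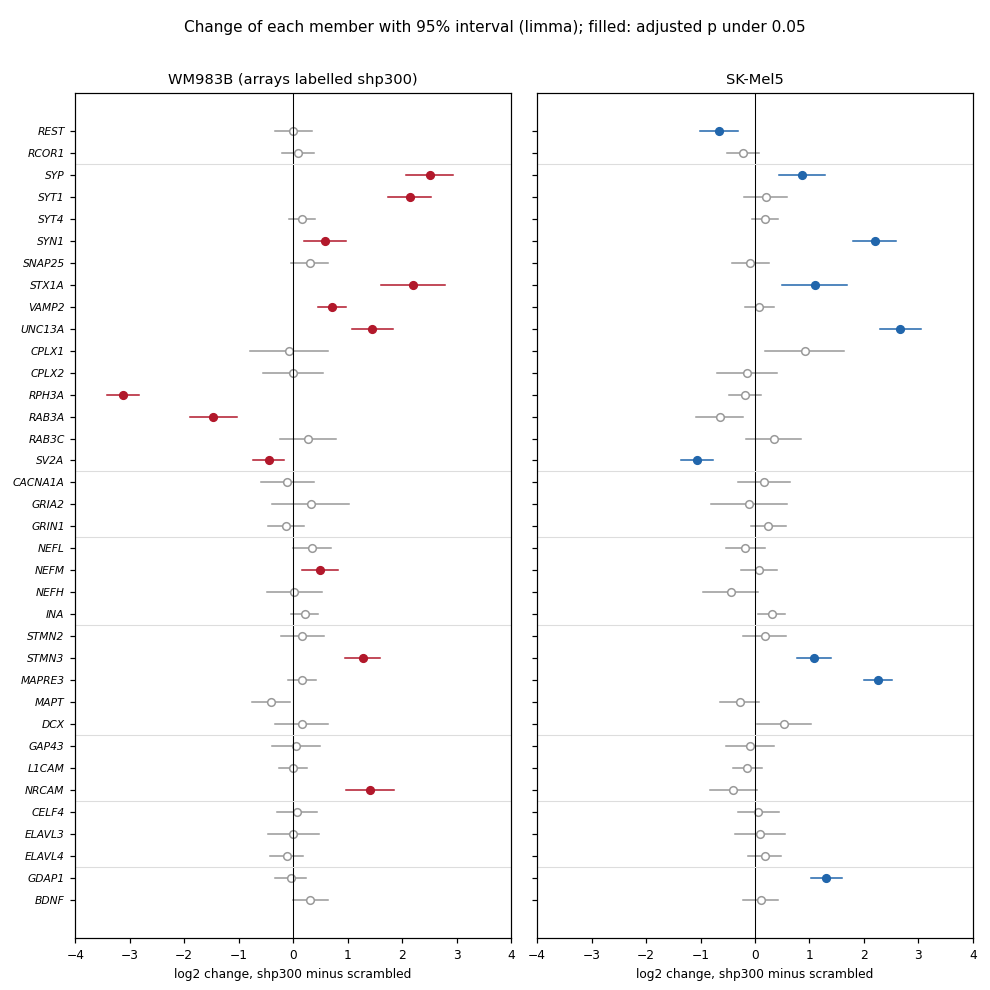
Log2 change (shp300 minus scrambled) of the 36 members in WM983B (arrays labelled shp300) and SK-Mel5, with 95% intervals from limma. Filled points have an adjusted p under 0.05, 12 in WM983B and 9 in SK-Mel5.

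The repressor was called in SK-Mel5 and not in WM983B. REST (Entrez 5978) had log2 values of 6.19 and 6.57 on the WM983B arrays labelled shp300, against 6.29 and 6.46 on the scrambled arrays. These overlapped, with a change of 0.00 (95% interval -0.34 to 0.35, adjusted p = 0.991). In SK-Mel5, REST measured 4.93 and 4.89 with shp300 and 5.66 and 5.49 with scrambled shRNA, so both shp300 arrays were lower. REST fell there by 0.67 (1.59-fold, SE 0.15, adjusted p = 0.0196). That call was lost with any 1 of the 4 SK-Mel5 arrays left out, at adjusted p = 0.118 and 0.0536 without scrambled 1 and 2, and 0.0640 and 0.0802 without shp300 1 and 2. Its change remained between -0.75 and -0.58 in those fits. The difference between the changes of the lines was 0.67 (95% interval 0.18 to 1.16, adjusted p = 0.0962) and was not called, though it passed with dim features left out (0.0401) and with trend and robust eBayes settings (0.0492). RCOR1 (Entrez 23186), the corepressor, measured 6.43 and 6.74 on WM983B arrays labelled shp300, against 6.52 and 6.49 on scrambled ones, which overlapped. In SK-Mel5 it measured 6.24 and 6.26 with shp300 and 6.48 and 6.46 with scrambled shRNA, lower on both shp300 arrays. Neither change was called: 0.08 (adjusted p = 0.732) in WM983B and -0.22 (0.311) in SK-Mel5.

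**Figure D3:**
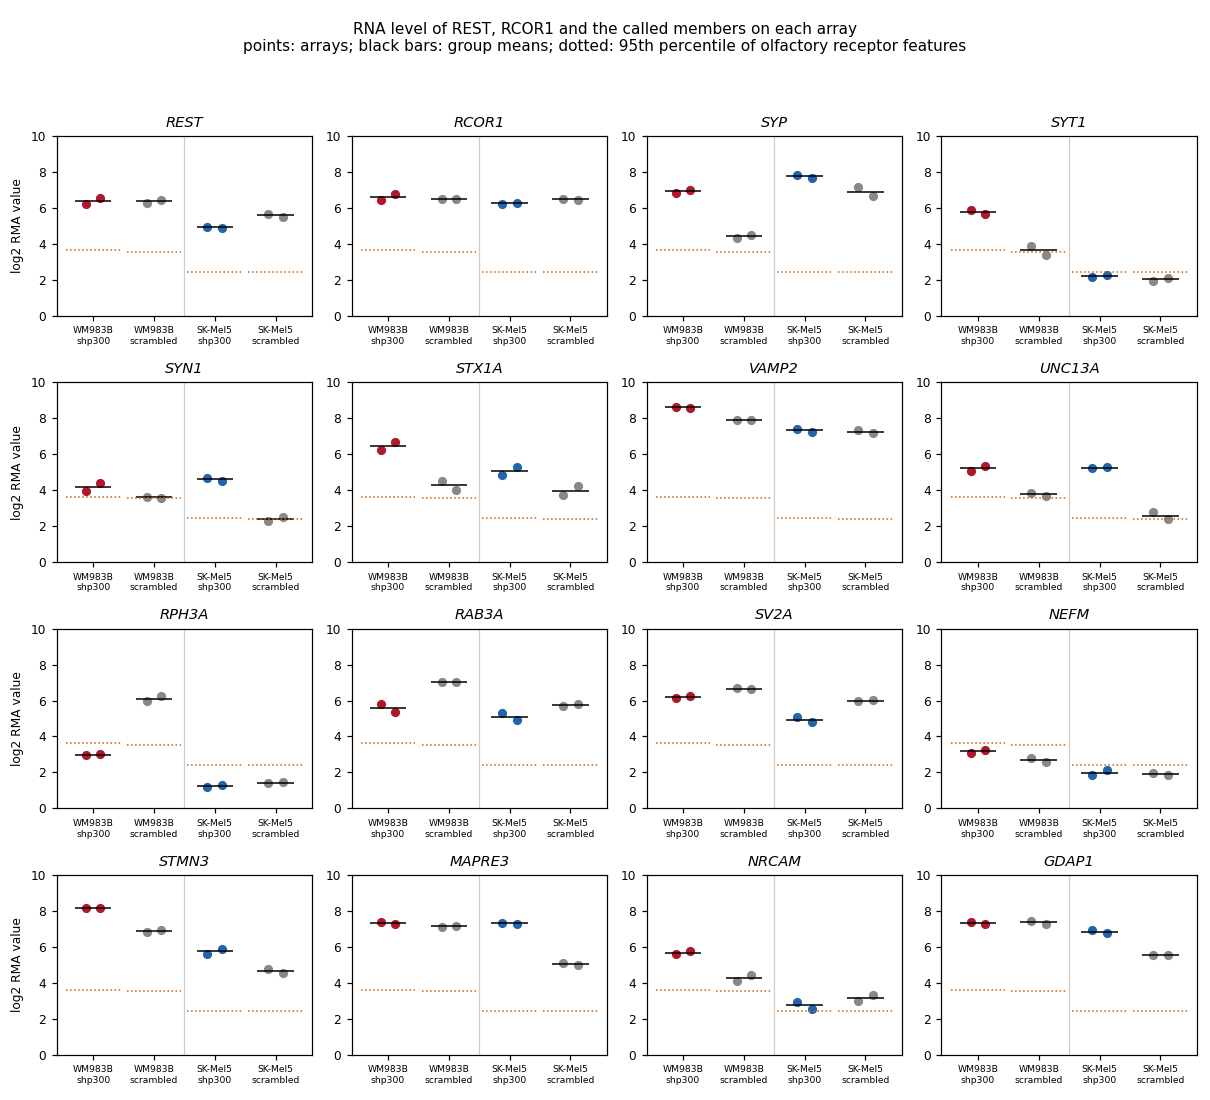
Log2 value on each of the 8 arrays for REST, RCOR1 and the other members called in at least 1 comparison. In each line the shp300 arrays stand left of the scrambled arrays. The shp300 and scrambled arrays of REST overlap in WM983B and are apart in SK-Mel5.

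Genes of the vesicle membrane moved in both directions. SYP (Entrez 6855) encodes synaptophysin, an abundant membrane protein of synaptic vesicles. It measured 6.82 and 7.01 on WM983B arrays labelled shp300, against 4.32 and 4.50 on scrambled ones, and 7.84 and 7.68 in SK-Mel5 with shp300, against 7.16 and 6.63 with scrambled shRNA. Both shp300 arrays stood above both scrambled arrays in each line. SYP rose by 2.50 (5.67-fold, SE 0.183, adjusted p = 0.000101) in WM983B and by 0.87 (1.82-fold, adjusted p = 0.0153) in SK-Mel5. The SK-Mel5 call was lost without scrambled 2 (0.60, adjusted p = 0.0722), without shp300 1 (0.79, 0.0729) and with the 4 SK-Mel5 arrays alone (0.0866); over all alternatives its adjusted p ran from 0.00212 to 0.0866. SV2A (Entrez 9900), a vesicle glycoprotein that regulates release, was lower in both lines. Its values were 6.16 and 6.26 against 6.70 and 6.63 in WM983B (labelled shp300 against scrambled), and 5.06 and 4.79 against 5.96 and 6.04 in SK-Mel5 (shp300 against scrambled). No arrays overlapped. SV2A fell by 1.07 (2.10-fold, SE 0.126, adjusted p = 0.00115) in SK-Mel5 and by 0.45 (1.37-fold, adjusted p = 0.0362) in WM983B. The WM983B call was lost in 7 of 16 alternatives, among them the fits without each of the WM983B arrays (0.166 and 0.108 without scrambled 1 and 2, 0.150 and 0.0839 without shp300 1 and 2) and without either SK-Mel5 scrambled array (0.0564).

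SYN1 (Entrez 6853) encodes synapsin, which tethers vesicles to the cytoskeleton, and its window holds the full RE1 letters printed above. It measured 4.68 and 4.52 in SK-Mel5 with shp300, against 2.28 and 2.53 with scrambled shRNA. That scrambled group was near background, so the sizes of the SK-Mel5 fold and of the difference between the lines are uncertain. In WM983B it measured 3.95 and 4.40 on arrays labelled shp300 and 3.65 and 3.54 on scrambled ones. The mean of those scrambled arrays was only 0.04 above the 95th percentile of the olfactory receptor features. The size of the WM983B fold is thus uncertain too. The groups were apart in both lines. SYN1 rose by 2.20 (4.59-fold, SE 0.169, adjusted p = 0.000183) in SK-Mel5 and by 0.58 (1.50-fold, adjusted p = 0.0422) in WM983B. The WM983B call was lost in 12 of 16 alternatives (adjusted p 0.0175 to 0.203), among them the fits without scrambled 1 (0.121), scrambled 2 (0.186) or shp300 2 (0.203) of WM983B, and without any 1 SK-Mel5 array (0.0525 to 0.0526). SYT1 (Entrez 6857) encodes the calcium sensor synaptotagmin. It measured 5.87 and 5.66 on WM983B arrays labelled shp300, against 3.86 and 3.39 on scrambled ones. It rose by 2.14 (4.40-fold, SE 0.171, adjusted p = 0.000145). The WM983B scrambled mean was only 0.08 above the 95th percentile of the olfactory receptor features, so the size of that fold is uncertain. In SK-Mel5, where both groups were near background, it measured 2.14 and 2.28 with shp300 and 1.93 and 2.11 with scrambled shRNA (0.19, adjusted p = 0.552).

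Among the fusion proteins, the SNARE genes STX1A and VAMP2 were called and SNAP25 was not. STX1A (Entrez 6804), a syntaxin of the plasma membrane, measured 6.25 and 6.67 on WM983B arrays labelled shp300, against 4.52 and 4.01 on scrambled ones. In SK-Mel5 it measured 4.83 and 5.28 with shp300 and 3.71 and 4.21 with scrambled shRNA. The arrays did not overlap in either line. STX1A rose by 2.20 (4.58-fold, SE 0.256, adjusted p = 0.000755) in WM983B and by 1.09 (2.13-fold, adjusted p = 0.0232) in SK-Mel5. The SK-Mel5 call was lost without scrambled 1 (0.84, adjusted p = 0.140), without shp300 2 (0.87, 0.120) and with the 4 arrays alone (0.0757); over all alternatives it ran from 0.00581 to 0.140. VAMP2 (Entrez 6844), the vesicle SNARE, measured 8.64 and 8.59 on WM983B arrays labelled shp300, against 7.89 and 7.92 on scrambled ones. It rose there by 0.71 (1.64-fold, SE 0.113, adjusted p = 0.00313). SK-Mel5 arrays of VAMP2 overlapped, at 7.39 and 7.26 with shp300 and 7.33 and 7.16 with scrambled shRNA (0.08, adjusted p = 0.748). SNAP25, their plasma membrane partner, measured 6.23 and 6.19 in WM983B labelled shp300 against 5.99 and 5.83 in scrambled, where the arrays did not overlap, and overlapped in SK-Mel5 at 3.80 and 3.40 with shp300 against 3.66 and 3.71 with scrambled shRNA.

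UNC13A (Entrez 23025) encodes Munc13-1, which primes vesicles for fusion. It measured 5.24 and 5.28 in SK-Mel5 with shp300, against 2.76 and 2.42 with scrambled shRNA, and 5.05 and 5.37 on WM983B arrays labelled shp300, against 3.87 and 3.65 on scrambled ones. All shp300 arrays stood above the scrambled ones of their line. The scrambled means were only 0.18 (SK-Mel5) and 0.21 (WM983B) above the 95th percentile of the olfactory receptor features. The sizes of the folds, and of their difference between the lines, are thus uncertain. UNC13A rose by 2.67 (6.36-fold, SE 0.163, adjusted p = 8.27e-05) in SK-Mel5 and by 1.45 (2.73-fold, adjusted p = 0.000647) in WM983B, and none of the 16 alternatives run lost either call. The small GTPase gene RAB3A and its effector RPH3A (rabphilin) went the other way. RPH3A (Entrez 22895) measured 2.95 and 3.02 on WM983B arrays labelled shp300, against 5.96 and 6.26 on scrambled ones. It fell by 3.12 (8.71-fold, SE 0.129, adjusted p = 1.79e-05) to a level near background, which leaves the size of that fold uncertain. RPH3A was near background in both SK-Mel5 groups, at 1.20 and 1.31 with shp300 and 1.40 and 1.48 with scrambled shRNA (-0.19, adjusted p = 0.424). RAB3A (Entrez 5864) measured 5.82 and 5.34 on WM983B arrays labelled shp300, against 7.05 and 7.04 on scrambled ones, and fell by 1.47 (2.76-fold, SE 0.188, adjusted p = 0.00114). In SK-Mel5 it measured 5.30 and 4.90 with shp300 and 5.70 and 5.80 with scrambled shRNA, both shp300 arrays being lower. That change, -0.65, missed the threshold (adjusted p = 0.0526) but passed it under 6 alternatives. These were the fits with dim features left out (0.0210), cyclic loess (0.0395), eBayes with trend and robust settings (0.0177), without either WM983B shp300 array (0.0346) and without SK-Mel5 shp300 1 (-0.85, 0.0385). CPLX1, a complexin gene, measured 3.99 and 4.06 in SK-Mel5 with shp300, against 2.69 and 3.53 with scrambled shRNA (0.91, adjusted p = 0.0924). It was not called, though it passed with trend and robust eBayes settings and without SK-Mel5 scrambled 2.

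Of the microtubule genes, STMN3 was called in both lines and MAPRE3 in SK-Mel5. STMN3 (Entrez 50861), a stathmin that destabilises microtubules, measured 8.15 and 8.16 on WM983B arrays labelled shp300, against 6.82 and 6.93 on scrambled ones. In SK-Mel5 it measured 5.61 and 5.88 with shp300 and 4.79 and 4.53 with scrambled shRNA. No arrays overlapped. STMN3 rose by 1.28 (2.42-fold, SE 0.139, adjusted p = 0.000542) in WM983B and by 1.08 (2.12-fold, adjusted p = 0.00167) in SK-Mel5, a difference of 0.20 between the lines (95% interval -0.26 to 0.65, adjusted p = 0.62). MAPRE3 (Entrez 22924), a protein of growing microtubule ends, measured 7.34 and 7.28 in SK-Mel5 with shp300, against 5.13 and 4.97 with scrambled shRNA. It rose by 2.26 (4.79-fold, SE 0.112, adjusted p = 6.72e-05). On WM983B arrays MAPRE3 measured 7.36 and 7.25 (labelled shp300) against 7.12 and 7.16 (scrambled), with both labelled arrays higher, a change of 0.17 (95% interval -0.09 to 0.42, adjusted p = 0.371).

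NRCAM (Entrez 4897), a cell adhesion molecule of axons, measured 5.59 and 5.77 on WM983B arrays labelled shp300, against 4.08 and 4.44 on scrambled ones. It rose by 1.41 (2.67-fold, SE 0.189, adjusted p = 0.00138). In SK-Mel5 both shp300 arrays were lower, at 2.96 and 2.56 against 3.01 and 3.31 with scrambled shRNA, but the change of -0.40 was not called (adjusted p = 0.223). GDAP1 (Entrez 54332), a mitochondrial outer membrane protein of neurons, measured 6.94 and 6.76 in SK-Mel5 with shp300, against 5.55 and 5.53 with scrambled shRNA. It rose by 1.31 (2.48-fold, SE 0.121, adjusted p = 0.000389). GDAP1 overlapped in WM983B, at 7.36 and 7.27 on arrays labelled shp300 and 7.46 and 7.26 on scrambled ones (-0.05, adjusted p = 0.849). NEFM (Entrez 4741), a neurofilament gene near background in all 4 groups, measured 3.09 and 3.26 on WM983B arrays labelled shp300, against 2.83 and 2.56 on scrambled ones. The rise of 0.49 (adjusted p = 0.0433) was lost in 10 of 15 alternatives (adjusted p 0.0381 to 0.239), among them the fits without each WM983B array (0.0546 and 0.239 without scrambled 1 and 2, 0.0768 and 0.189 without shp300 1 and 2) and without either SK-Mel5 scrambled array (0.0667). NEFM overlapped in SK-Mel5, at 1.88 and 2.12 with shp300 and 1.96 and 1.88 with scrambled shRNA (0.08, adjusted p = 0.811).

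Besides RCOR1, 20 members were called in none of the 4 comparisons, and 11 of those were near background in all 4 groups. Their changes ran from -0.41 to 0.35 in WM983B and from -0.44 to 0.91 in SK-Mel5. The 4 of them above background in every group were SNAP25, the neurofilament gene NEFL, the tau gene MAPT and the adhesion gene L1CAM. L1CAM measured 8.16 and 8.24 on WM983B arrays labelled shp300 against 8.15 and 8.27 on scrambled ones, and 7.69 and 7.80 in SK-Mel5 with shp300 against 7.82 and 7.95 with scrambled shRNA. Those arrays overlapped in WM983B, and in SK-Mel5 both shp300 arrays were lower. NEFL averaged 5.93 ± 0.10 on WM983B arrays labelled shp300 and 5.58 ± 0.31 on scrambled ones (SD, n = 2 each), and measured 9.31 and 9.37 against 9.50 and 9.53 in SK-Mel5 (shp300 against scrambled). MAPT, at 3.83 and 4.12 on WM983B arrays labelled shp300 and 4.29 and 4.47 on scrambled ones, had the lowest of these changes in that line (-0.41, adjusted p = 0.1). With dim features left out, MAPT passed the threshold in WM983B and over both lines. GRIA2 and NEFL passed it in WM983B and RAB3C in SK-Mel5, each only in a fit with a single array left out.

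A test of the difference between the lines (change in WM983B labelled shp300 minus change in SK-Mel5) called 9 members (4 higher and 5 lower in WM983B), beside 9.46% of all features (5% higher, 4.46% lower). The change was higher in WM983B for SYT1 (1.94, adjusted p = 0.00388), NRCAM (1.81, 0.00698), SYP (1.64, 0.00902) and VAMP2 (0.64, 0.0468). It was lower in WM983B for RPH3A (-2.94, 0.000412), MAPRE3 (-2.09, 0.000649), SYN1 (-1.62, 0.00711), GDAP1 (-1.36, 0.00399) and UNC13A (-1.22, 0.0173). RPH3A and SYT1 were near background in both SK-Mel5 groups, so the sizes of their differences are uncertain. A fall of RPH3A in SK-Mel5 could hardly have been measured. The VAMP2 call was lost in 10 of 15 alternatives, among them the fits without any 1 of the 8 arrays (adjusted p 0.0620 to 0.145). The UNC13A call was lost in 5 of 15, among them the fits without scrambled 1 (0.0706) or shp300 1 (0.0538) of WM983B and without scrambled 2 (0.0570) or shp300 2 (0.0509) of SK-Mel5. Besides REST, SV2A (0.62, adjusted p = 0.0726) and RAB3A (-0.82, 0.105) missed the threshold here. SV2A passed it under 4 alternatives (0.0261 to 0.0495, among them the fit without SK-Mel5 shp300 1 at 0.76, 0.0459) and RAB3A under 2 (0.0473 and 0.0448). EP300 differed as well (0.95, adjusted p = 0.0357). Over both lines, an additive model of line and shRNA called 8 members (6 higher, 2 lower) beside 16.8% of all features (7.63% higher, 9.15% lower). The higher ones were UNC13A (2.06, adjusted p = 0.000552), SYP (1.68, 0.00537), STX1A (1.64, 0.00258), SYN1 (1.39, 0.012), MAPRE3 (1.21, 0.0498) and STMN3 (1.18, 0.000185), and the lower ones RAB3A (-1.06, 0.00543) and SV2A (-0.76, 0.0062). The MAPRE3 call was lost in 8 of 15 alternatives, among them the fits without WM983B shp300 1 (0.0541) and without each SK-Mel5 array (0.123 to 0.129). SYT1 (1.17, 0.0502) and RPH3A (-1.65, 0.0529) missed the threshold over both lines and passed it under 6 alternatives (0.0339 to 0.0495) and 7 alternatives (0.0372 to 0.0480), among them fits without single SK-Mel5 arrays. These comparisons share arrays with those of each line.

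Genes around REST were read from a list of 20 cofactors and regulators, of which 18 were measured. In WM983B labelled shp300, 7 were higher and 3 lower, and in SK-Mel5 4 were higher and 2 lower. Those are 55.6% and 33.3% of the list, beside 22.5% and 16.4% of all features. Like the members, this list and those that follow were drawn up with earlier results of these data known. The list's median change was 0.05 and 0.11, beside 0.02 and 0.01 over all features. KDM1A, the demethylase carried by RCOR1, averaged 7.67 ± 0.06 on WM983B arrays labelled shp300, against 8.97 ± 0.04 on scrambled ones (SD, n = 2 each), and measured 6.86 and 6.87 in SK-Mel5 with shp300, against 7.26 and 7.55 with scrambled shRNA. It was lower on every shp300 array than on the scrambled arrays of its line, and fell by 1.30 (adjusted p = 0.000291) in WM983B and by 0.54 (0.0207) in SK-Mel5. The SK-Mel5 call of KDM1A was lost without scrambled 2 (-0.40), shp300 1 (-0.54) or shp300 2 (-0.55) of that line. It was also lost with the 4 SK-Mel5 arrays alone (adjusted p = 0.0865). RCOR3, a relative of RCOR1, rose by 0.95 (adjusted p = 0.000893) in WM983B and by 1.02 (0.00101) in SK-Mel5. BTRC, part of a ubiquitin ligase that marks REST for breakdown, rose by 0.80 (0.00272) in WM983B and by 0.83 (0.00319) in SK-Mel5. EHMT2, a histone methyltransferase, fell by 0.75 (0.00326) in WM983B with a change of 0.05 (0.858) in SK-Mel5, which was not called. In SK-Mel5 the small phosphatase gene CTDSP1, whose product stabilises REST, rose by 1.02 (0.0029), and its relative CTDSPL fell by 1.44 (0.000669).

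Of 12 other genes reported as REST targets, 4 were higher and none lower in each line (33.3% in both, beside 22.5% of all features in WM983B and 16.4% in SK-Mel5), with medians of 0.15 in WM983B and 0.34 in SK-Mel5. SCG2, a granin of dense-core vesicles, measured 6.38 and 6.51 on WM983B arrays labelled shp300, against 3.68 and 3.99 on scrambled ones, and 5.37 and 5.43 in SK-Mel5 with shp300, against 2.06 and 2.38 with scrambled shRNA. SCG2 rose by 2.61 (6.11-fold, adjusted p = 4.92e-05) in WM983B and by 3.18 (9.06-fold, 6.72e-05) in SK-Mel5, where the scrambled group was near background, which leaves the size of that fold uncertain. The WM983B scrambled values were not far above the 95th percentile of the olfactory receptor features in that group (3.55). The size of the WM983B fold is thus uncertain too. CHRNB2 encodes a nicotinic receptor subunit and rose by 1.33 (adjusted p = 0.00515) in WM983B and by 1.26 (0.00895) in SK-Mel5, there too against a scrambled group near background. The CHRNB2 call in SK-Mel5 was lost without scrambled 1 of that line (1.17, 0.0609) and with its 4 arrays alone (0.0650). VGF, a secreted neuropeptide precursor, measured 10.04 and 10.30 on WM983B arrays labelled shp300, against 7.63 and 7.88 on scrambled ones (2.42, adjusted p = 3.92e-05). Its change of 0.35 in SK-Mel5 was not called (0.128), and the lines differed by 2.06 (0.00147). CHGA, another granin, rose by 1.50 (0.00103) in SK-Mel5, at 5.05 and 4.96 with shp300 against 3.24 and 3.77 with scrambled shRNA, while near background in both WM983B groups. The remaining calls were CALB1 in WM983B and SCN2A in SK-Mel5. CALB1 lost its call in 7 of 15 alternatives (changes 0.39 to 0.74) and SCN2A in 10 of 15 (0.58 to 1.12).

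**Figure D4:**
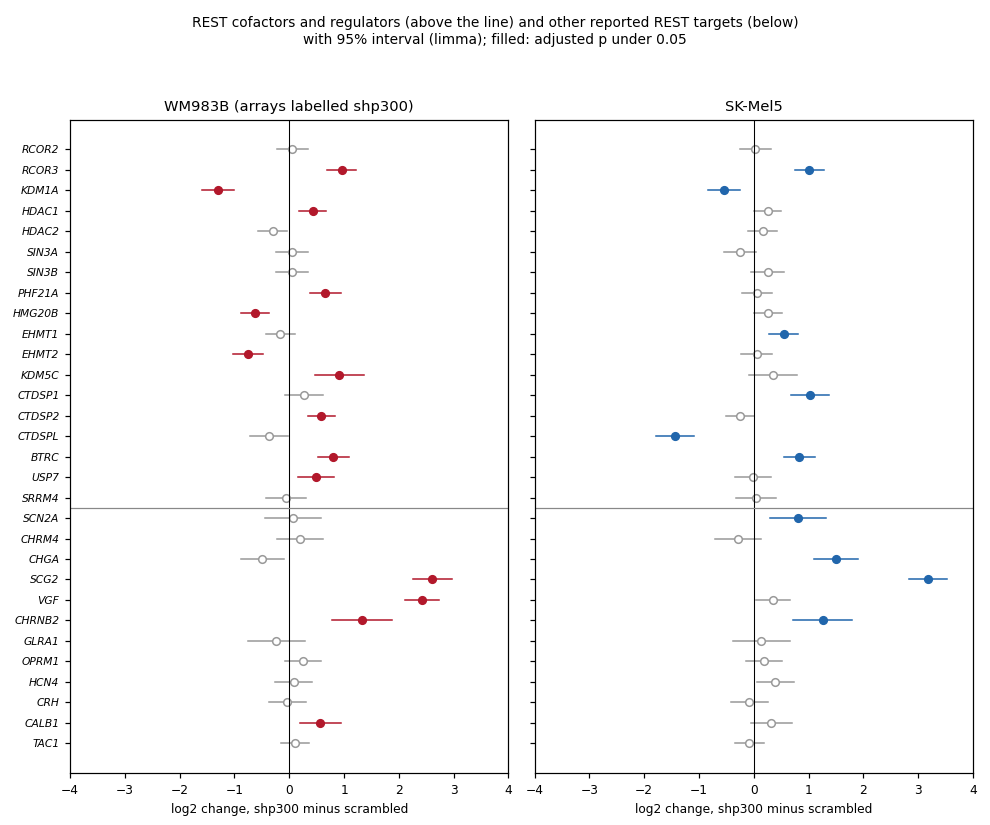
Log2 change (shp300 minus scrambled) with 95% intervals for 18 REST cofactors and regulators, above the line, and 12 other reported REST targets, below it, in WM983B (arrays labelled shp300) and SK-Mel5. Filled points have an adjusted p under 0.05. Among the targets, 4 are filled in each line and all of those are above 0.

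Of 32 other measured exocytosis genes, 5 were higher and 4 lower in WM983B labelled shp300, and 2 were higher and 1 lower in SK-Mel5 (medians 0.16 and 0.03). That is 28.1% of the list in WM983B and 9.38% in SK-Mel5, beside 22.5% and 16.4% of all features. CADPS, which primes dense-core vesicles, measured 5.85 and 5.40 on WM983B arrays labelled shp300, against 3.20 and 3.24 on scrambled ones, a rise of 2.40 (adjusted p = 6.03e-05) whose size is uncertain, since the scrambled group was near background. It was near background in both SK-Mel5 groups. RIMS2, an active zone scaffold, rose by 1.00 (0.00137) in WM983B, while the Rab gene RAB27A (-1.20, 0.00113) and the synaptotagmin SYT11 (-1.15, 0.000699) were lower. RIMS2 was also called higher in SK-Mel5 (0.54, 0.0284), where both groups were near background. That call was lost in 5 of 15 alternatives: without scrambled 1 (0.105), scrambled 2 (0.126) or shp300 1 (0.126) of that line, with its 4 arrays alone (0.0695) and with the replicate block (0.0622). UNC13B, a relative of UNC13A, rose by 0.72 (0.00321) in SK-Mel5. Among 20 other cytoskeleton genes, 3 were higher and 5 lower in WM983B labelled shp300, and 1 was higher and 4 lower in SK-Mel5 (medians 0.06 and -0.08), or 40% and 25% of the list beside the same 22.5% and 16.4%. STMN1, a relative of STMN3, measured 6.85 and 6.64 on WM983B arrays labelled shp300 against 8.03 and 7.94 on scrambled ones, and 4.30 and 4.39 in SK-Mel5 with shp300 against 5.37 and 5.37 with scrambled shRNA. It fell by 1.24 (0.000264) in WM983B and by 1.03 (0.000957) in SK-Mel5, whereas STMN3 rose in both. TUBB4A, a beta-tubulin of brain, fell by 1.59 (0.000164) in WM983B and by 1.77 (0.000149) in SK-Mel5. MAP1B, a microtubule-associated protein, rose by 1.16 (0.000721) in WM983B and fell by 0.48 in SK-Mel5 (0.045), a call lost in 10 of 16 alternatives, among them the fits without each SK-Mel5 array (0.0752 to 0.171) and without either WM983B shp300 array (0.0564). Of 14 other neuronal RNA-binding protein genes, 2 were higher in each line and none lower (medians 0.00 and 0.09), 14.3% in both lines, which is under the share of all features in each. RBFOX2, a splicing factor, rose by 0.89 (0.000925) in WM983B and by 0.71 (0.0037) in SK-Mel5, and ELAVL2 in WM983B by 1.23 (0.0035).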

How the data were processed

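RNA of WM983B and SK-Mel5 cells was measured on 8 arrays, 2 in each of 4 groups, which were taken from the labels. The authors deposited 1 log2 value per gene feature and array, made by RMA with affy 1.36.1 in R 2.15.1, per the submitters' processing notes. The probe mapping and genome build are not given in the sources used here, so array features are given by Entrez number without coordinates. The promoter windows and their coordinates are RefSeq's, on GRCh38.p14. Quartiles were close within a line and different between lines, so each line was apparently normalized on its own. Features carry Entrez numbers: 22458 of 23786 matched 1 symbol, 0 several and 1328 none. No sample column was left unused (0).

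limma 3.58.1 in R 4.3.3 fitted 4 group means to all arrays (lmFit and eBayes). In each line the scrambled mean was subtracted from the shp300 mean, and these changes were then compared between lines. For the change over both lines, line and shRNA were additive terms. All tests were two-sided. Benjamini-Hochberg adjustment ran over every feature, separately for the 4 comparisons, and an adjusted p under 0.05 was a call. "Rose" and "fell" refer to calls. The method was tested on simulated data.

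REST, RCOR1 and each member called in at least 1 comparison are given by array, other members by range and count. From each list of other genes, at most 4 called genes with the smallest p per line are named. SNAP25, CPLX1, L1CAM, NEFL, MAPT and CDH2 were named after their values were seen. The members and lists were chosen with earlier results of these data known. Alternatives were a replicate block, a filter on dim features, 3 scalings, robust and weighted fits, fits of only the arrays compared, and leaving out each array in turn.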

Additional observations from a re-analysis of the deposited data

Results flagged for a closer look

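For 9 members the change in WM983B labelled shp300 and the change in SK-Mel5 differed by limma's test of the difference (log2, WM983B minus SK-Mel5). The values were 1.64 for SYP, 1.94 for SYT1, 0.64 for VAMP2 and 1.81 for NRCAM. They were -1.62 for SYN1, -1.22 for UNC13A, -2.94 for RPH3A, -2.09 for MAPRE3 and -1.36 for GDAP1. EP300 itself differed by 0.95 (adjusted p = 0.0357), a call lost in 7 of 15 alternatives, among them the fits without scrambled 1, scrambled 2 or shp300 2 of WM983B and without scrambled 1, shp300 1 or shp300 2 of SK-Mel5 (0.0672 to 0.119).

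Among the other genes named, the difference was called for KDM1A (-0.76), EHMT2 (-0.80), SYT11 (-0.81) and CHGA (-1.99). It was also called for CTDSPL (1.08), CADPS (2.34), MAP1B (1.65), ELAVL2 (1.37) and VGF (2.06). Single arrays decided several of these calls. KDM1A lost its call without any 1 array other than SK-Mel5 scrambled 2 (0.0715 to 0.113), EHMT2 without any 1 other than WM983B shp300 1 and SK-Mel5 shp300 2 (0.0517 to 0.100) and SYT11 without any 1 other than SK-Mel5 shp300 1 (0.0728 to 0.126). CTDSPL lost it without scrambled 1, scrambled 2 or shp300 2 of WM983B or either scrambled array of SK-Mel5 (0.0555 to 0.0777). ELAVL2 lost it without scrambled 2 or shp300 1 of WM983B or scrambled 1, scrambled 2 or shp300 2 of SK-Mel5 (0.0519 to 0.0933). SYT1, RPH3A, CADPS, SYT11 and ELAVL2 were near background in both SK-Mel5 groups, so the sizes of their differences are uncertain.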

How the results depend on the processing

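No called value changed sign under any alternative. In SK-Mel5, the fit of only the arrays compared called 2050 features, against 3894 with all arrays. Whether the replicate number pairs the samples is not in the labels. Same-numbered arrays shared little deviation (r = 0.00303 in WM983B and 0.0277 in SK-Mel5), which cannot show how they were prepared. With the replicate number as a block, 1351 features differed between the lines, against 2250, and 2560 changed over both lines, against 3991. The block left 9 called members in WM983B (SYN1, SV2A and NEFM lost), 9 in SK-Mel5, 7 in the difference (VAMP2 and UNC13A lost) and 7 over both lines (MAPRE3 lost). With the 75th percentile of the olfactory receptor features as the line, 3 members in WM983B labelled shp300, 4 in WM983B scrambled, 3 in SK-Mel5 shp300 and 7 in SK-Mel5 scrambled were near background, against 15, 14, 17 and 19.

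Leaving out each array in turn gave 3146 to 5398 called features in WM983B (3268 and 3146 without scrambled 1 and 2), 2143 to 3648 in SK-Mel5 (2143 and 2279 without scrambled 1 and 2), 885 to 1784 in the difference and 2845 to 3694 over both lines. Called members ran from 9 to 11 in WM983B, 7 to 10 in SK-Mel5, 7 to 9 in the difference and 7 to 9 over both lines. A lone array left in a group was given the spread of the remaining groups. The filter on dim features kept 18 of 36 members, so SYT1, RPH3A and NEFM have no value under it.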
